A study of Mus musculus with 4 samples.

Results

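The 7 CatSper genes listed by symbol in the deposited tables (CATSPER1, CATSPER2, CATSPER3, CATSPER4, CATSPERB, CATSPERG1 and CATSPERG2) were followed through mouse testis development. They were chosen by name from 112302 entries, and all 7 had an entry in every library. RNA from BALB/C mouse testis was sequenced at E14 and E18 (embryonic days 14 and 18) and at 3 weeks and 6 months of postnatal age, each stage as 1 library, and the labels name no treatment or mutation. The total RNA was bought from a supplier, and how many animals went into each preparation is not given in the sources used here. Values are RPKM, read numbers divided by gene length and library size, so comparisons between genes rest on the gene lengths used. Because each stage has a lone library, differences have no replicate check. Intervals cover counting error only, and "higher" and "lower" describe these libraries.

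Entries of the 7 genes are written in capitals, as in the tables. CatSper is the calcium channel of the sperm tail. Its pore is built from CatSper1, CatSper2, CatSper3 and CatSper4, each supplied by its own gene. Auxiliary subunits, among them CatSper beta (CATSPERB) and CatSper gamma (CATSPERG1 and CATSPERG2 in the mouse), join them in the membrane of the flagellum. The channel opens with alkaline pH inside the cell and drives hyperactivated swimming, and male mice that lack a pore gene are infertile. In the male, germ cells enter meiosis in the weeks after birth, and haploid spermatids follow, so the fetal testis holds neither.

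The libraries rested on 33952471 to 38903334 reads. Summed RPKM of 6 spermatocyte markers was 1.85 at E14 and 4.72 at E18, then 665 at 3 weeks and 794 at 6 months. For 8 elongating spermatid markers it was 3.13, 3.78, 26.9 and 6813 RPKM in the same order, and for 6 round spermatid markers 1.52, 1.97, 100.4 and 496. Dkkl1 gave 84.0 RPKM of the round spermatid sum at 3 weeks, where the median of the 6 was 3.40. Tssk6 and Spem1 stood at 0.221 and 0.169 RPKM there, and at 0.635 and 0.168 at E18. Between 3 weeks and 6 months the spermatocyte markers went different ways, as described below. Markers of Sertoli cells (6 genes) summed to 9.22 RPKM at E14 and 30.6 at E18, then to 50.2 at 3 weeks and 24.6 at 6 months. At E14 their values lay between 0 for Rhox8 and 4.00 for Sox9, with Amh at 0.262. Markers of Leydig cells (5 genes) summed to 8.02, 126, 64.0 and 552 RPKM over the 4 stages in order of age. Markers of other tissues were also present. The 3 liver markers summed to 253 RPKM at E14 and 49.8 at E18, and 4 skeletal muscle markers to 177 and 43.5. Among the muscle markers Mylpf went from 146 to 10.7 RPKM, while Ckm, the only one higher at E18, went from 15.9 to 20.4. For 3 cartilage markers the sums were 51.0 RPKM at E14 and 0.475 at E18. At E18, 3 bladder markers summed to 29.3 RPKM and 3 kidney tubule markers to 20.4, and at 3 weeks 3 epididymis markers summed to 65.8 (0.758 at 6 months). The part of these other tissues in the CatSper results was not tested. In bulk tissue, fewer cells of a type and less RNA per cell cannot be told apart.

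Windows around the annotated starts are shown as a description. Their part in the split between 3 weeks and 6 months, described below, was not tested. RefSeq windows on build GRCm38.p6, which run from 250 bases before the start to 50 bases after it on the gene's own strand, were matched for 5 of the 7 genes. CATSPER1 and CATSPERG2 had no entry; the CATSPER1 gene lies on chromosome 19 at 5335741 to 5344280, plus strand. CATSPER3 lies at chr13:55784329-55784628 on the plus strand and CATSPER4 at chr4:134227334-134227633 on the minus strand. CATSPER2 lies at chr2:121413743-121414042 (minus), CATSPERB at chr12:101404423-101404722 (plus) and CATSPERG1 at chr7:29213984-29214283 (minus). Capitals mark matches, on either strand, to the CRE core TGACG, the RFX core GTTGCC or the MYB core AACNG. No matches overlap each other. These cores belong to factors known from spermatogenesis: CREM acts through CRE sites in spermatids, RFX2 through RFX sites in spermatids, and A-MYB through MYB sites in spermatocytes.
CATSPER3: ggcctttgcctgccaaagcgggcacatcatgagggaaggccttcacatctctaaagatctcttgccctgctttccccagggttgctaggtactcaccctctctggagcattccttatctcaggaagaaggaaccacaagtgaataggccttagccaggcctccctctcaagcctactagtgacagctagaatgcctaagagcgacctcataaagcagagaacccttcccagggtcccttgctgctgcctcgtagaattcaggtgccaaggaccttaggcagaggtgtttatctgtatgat
CATSPER4: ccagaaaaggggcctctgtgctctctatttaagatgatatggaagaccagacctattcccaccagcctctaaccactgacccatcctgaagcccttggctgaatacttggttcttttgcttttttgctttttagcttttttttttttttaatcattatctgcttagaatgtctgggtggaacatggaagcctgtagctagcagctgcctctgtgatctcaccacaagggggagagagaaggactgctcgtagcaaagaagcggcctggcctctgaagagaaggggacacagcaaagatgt
CATSPER2: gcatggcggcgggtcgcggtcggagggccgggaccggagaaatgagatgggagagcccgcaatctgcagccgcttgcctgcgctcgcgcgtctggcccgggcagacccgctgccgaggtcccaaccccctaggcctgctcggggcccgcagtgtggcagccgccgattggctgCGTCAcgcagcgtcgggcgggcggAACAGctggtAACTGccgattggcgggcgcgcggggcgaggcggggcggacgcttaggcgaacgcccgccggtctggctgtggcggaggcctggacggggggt
CATSPERB: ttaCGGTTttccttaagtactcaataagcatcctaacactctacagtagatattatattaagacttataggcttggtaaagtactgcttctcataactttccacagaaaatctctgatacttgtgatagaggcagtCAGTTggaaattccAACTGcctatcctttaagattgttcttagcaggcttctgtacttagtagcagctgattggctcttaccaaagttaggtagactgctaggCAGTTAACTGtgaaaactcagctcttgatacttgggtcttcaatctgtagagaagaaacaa
CATSPERG1: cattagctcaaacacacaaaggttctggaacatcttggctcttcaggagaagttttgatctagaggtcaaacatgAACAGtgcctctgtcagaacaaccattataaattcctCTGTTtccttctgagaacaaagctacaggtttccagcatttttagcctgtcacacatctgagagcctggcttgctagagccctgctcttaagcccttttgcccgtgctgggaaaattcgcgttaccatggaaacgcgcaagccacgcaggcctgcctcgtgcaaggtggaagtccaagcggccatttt

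The CATSPER3 and CATSPER4 windows held 0 matches to any of the 3 motifs. The CATSPER2 window held 2 MYB cores, the CATSPERB window 5 and the CATSPERG1 window 2, and a second annotated start of CATSPERG1 also had 2. A MYB core occurs in 80.3% of all 32851 promoter windows of this length, so its presence is the common case. How often windows hold a given number of cores was not counted. The CATSPER2 window also held 1 CRE core, at position -77 from the start, printed as CGTCA on the strand shown; 20.8% of windows hold one. The RFX core GTTGCC, found in 12.5% of windows, was in none of the 5. Only the stated letters were searched, so variant forms of these sites were not counted. GC content was 74.7% for CATSPER2, 52.3% for CATSPER3, 46.7% for CATSPER4, 38.0% for CATSPERB and 48.3% for CATSPERG1. These are letter matches in a short window and say nothing of binding.

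Among the pore genes, CATSPER1 was not detected before birth. It had 0 reads at E14 and at E18, which allows up to 0.0374 and 0.0425 RPKM (3 reads). At 3 weeks it stood at 3.22 RPKM (225 reads, exact Poisson 95% interval 2.81 to 3.66) and at 6 months at 29.1 (2149 reads, 27.9 to 30.4). It was the highest of the 7 genes at 6 months and the fifth at 3 weeks.

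CATSPER4 had 1 read in each fetal library, 0.0122 RPKM at E14 and 0.0139 at E18. It reached 2.04 RPKM at 3 weeks (1.73 to 2.40) and 10.8 at 6 months (10.1 to 11.6). CATSPER3 had 0.0377 RPKM at E14 (2 reads), 0 at E18 (0 reads, allowing up to 0.0643), 0.735 at 3 weeks (34 reads, 0.509 to 1.03) and 4.18 at 6 months (204 reads, 3.63 to 4.80). Both genes were thus highest at 6 months, as was CATSPER1.

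CATSPER2 had another course. It was the highest of the 7 genes in both fetal libraries, with 0.160 RPKM at E14 (23 reads, 0.101 to 0.240) and 0.253 at E18 (32 reads, 0.173 to 0.357). It reached 5.91 RPKM at 3 weeks (5.50 to 6.36) and 4.91 at 6 months (4.54 to 5.31). Its ratio to the next gene was 2.26 at E18 (CATSPERG1, Clopper-Pearson 95% interval 1.31 to 3.92) and 4.24 at E14 (CATSPER3, 2 reads, 1.05 to 37.1). CATSPER2 shares 18 exon bases, of 3695, with the opposite-strand gene Pdia3, a protein disulfide isomerase at 24.1 RPKM at E14 and 28.9 at E18. How strand was counted is not given, and the part of Pdia3 reads in the fetal CATSPER2 values was not tested.

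The 3 auxiliary genes among the 7 were highest at 3 weeks in RPKM as deposited, though CATSPERG2 was higher at 6 months after rescaling by the median of ratios. CATSPERB had 0.00692 RPKM at E14 (1 read), 0.0236 at E18 (3 reads), 12.7 at 3 weeks (12.1 to 13.3) and 6.68 at 6 months (6.25 to 7.14). CATSPERG2 had 0.0160, 0.0848, 10.4 and 7.32 RPKM at the 4 stages in order of age, and CATSPERG1 had 0.0292, 0.112, 7.67 and 4.18. All 3 auxiliary genes exceeded all 4 pore genes at 3 weeks, where every neighbouring pair in the order had intervals that stood apart.

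**Figure D1:**
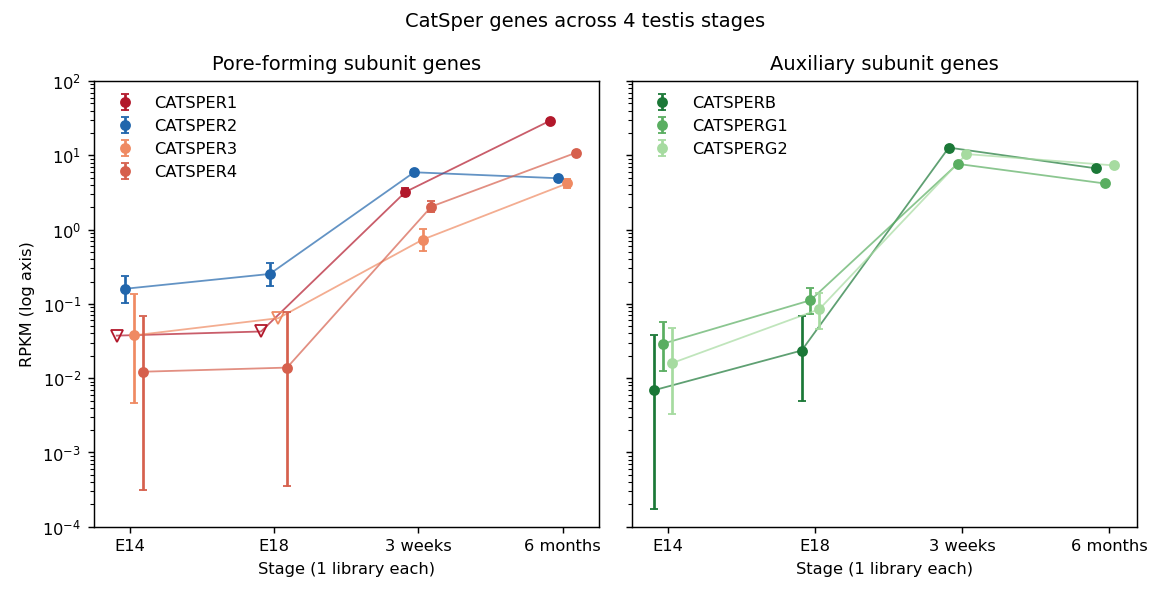
RPKM (log axis) of the 4 pore genes (left) and the 3 auxiliary genes (right) at each stage from E14 to 6 months, with exact Poisson 95% intervals for counting error. Open triangles mark libraries with 0 reads, drawn at the level of 3 reads. CATSPER1, CATSPER3 and CATSPER4 go on upward to 6 months, while CATSPER2 and the auxiliary genes are lower there in RPKM as deposited (CATSPER2 and CATSPERG2 are higher after rescaling by the median of ratios).

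CATSPERG1 and CATSPERG2 are near-identical copies, both on chromosome 7 (29181321 to 29214035 and 29697219 to 29727032, minus strand, GENCODE on GRCm38). Their longest annotated transcripts matched at 96.7% of 4386 aligned bases. Of the distinct 50-base windows in the CATSPERG1 transcripts, 43.0% also occurred in those of CATSPERG2. The split of reads between the copies is therefore uncertain, and values for either depend on how the authors treated reads that map to both. As deposited, CATSPERG2 over CATSPERG1 was 0.548 at E14 (0.0936 to 2.28) and 0.757 at E18 (0.367 to 1.50). It was 1.36 at 3 weeks (1.27 to 1.45) and 1.75 at 6 months (1.61 to 1.90). The gene lengths behind these values differ, at 4824 bases for CATSPERG2 and 7044 for CATSPERG1. In reads, CATSPERG2 had 1703 and CATSPERG1 1835 at 3 weeks, and 1264 and 1054 at 6 months. The ratio above 1 at 3 weeks thus rests on the lengths used. CATSPER1 and CATSPER2 shared 0 of the 50-base windows, and so did CATSPER3 and CATSPER4.

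In E18 against E14 none of the 7 genes passed the limit of a 2-fold difference on the log2(RPKM + 1) scale. No call was possible in either direction. A call needs at least 1 RPKM in the higher library, and the highest level was 0.253 (CATSPER2 at E18). Of the 42964 entries that reached 1 RPKM in some library, called measured here, 2.17% were called higher and 1.34% lower, and of protein-coding ones 3.54% and 1.63%. The 7 differences lay between -0.05 (CATSPER3) and 0.11 (CATSPERG1), with a median of 0.02, against 0.03 over all measured entries. This scale compresses values near 0. By RPKM alone, CATSPERG1 was 3.84 times higher at E18 (Clopper-Pearson 95% interval 1.70 to 9.77) and CATSPERG2 5.30 times (1.48 to 28.8), from 27 and 14 reads at E18 and 8 and 3 at E14. For CATSPER2 the ratio was 1.58 (0.897 to 2.83). In the same libraries the germ cell markers Ddx4, Dazl and Mael summed to 14.6 RPKM at E18 and 0.592 at E14.

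In 3 weeks against E18, 6 of the 7 genes passed the limit upward and 0 downward. A downward call was not possible, because each of the 7 was below 1 RPKM at E18. Over all measured entries 32% were called higher and 10.5% lower, and over protein-coding entries 24.1% and 13.2%. The median difference of the 7 genes was 2.46, against 0.46 over all measured entries. The auxiliary genes had the largest differences, at 3.74 for CATSPERB, 3.39 for CATSPERG2 and 2.96 for CATSPERG1. Among pore genes the difference was 2.46 for CATSPER2, 2.08 for CATSPER1 and 1.59 for CATSPER4.

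CATSPER3, with a difference of 0.79, did not pass the limit at 3 weeks. It had 34 reads there and 0 at E18, at least 11.4-fold higher when E18 is set to the level of 3 reads. On that footing CATSPER1 was at least 75.6-fold higher at 3 weeks than at E18. CATSPER2 had 23.4 times its E18 level at 3 weeks (16.4 to 34.4), CATSPERG1 68.5 times (46.9 to 104.3) and CATSPERG2 123 times (72.9 to 225). For CATSPERB, with 3 reads at E18, the ratio was 539 with an interval of 184 to 2615, and for CATSPER4, with 1 read, 147 with an interval of 26.0 to 5853. All 7 genes thus had a higher RPKM at 3 weeks than at E18, over a wide range of sizes.

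**Figure D2:**
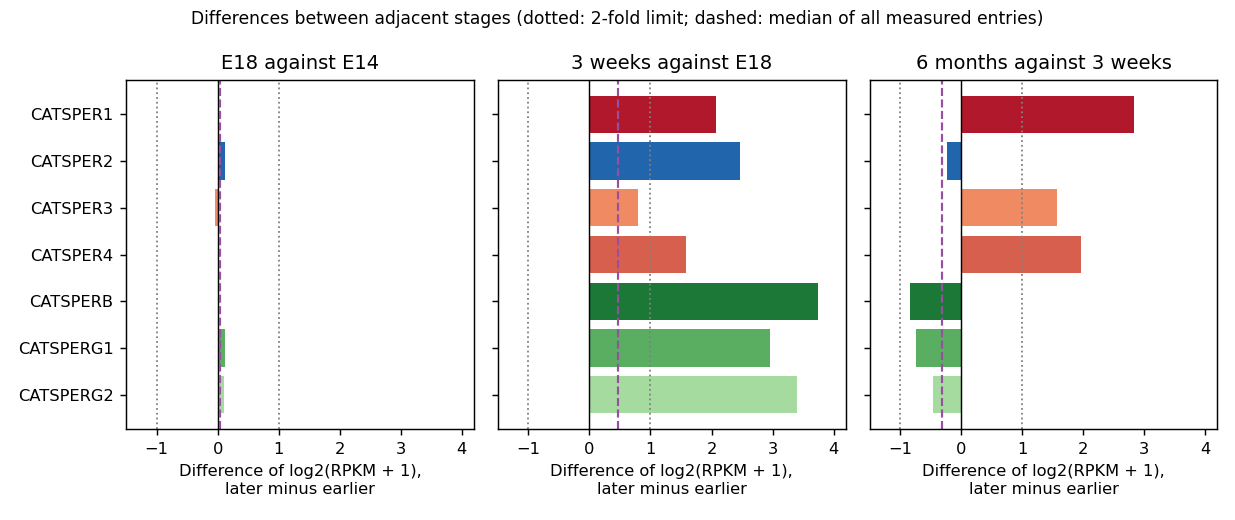
Difference of log2(RPKM + 1), later minus earlier stage, for the 7 genes in each comparison of adjacent stages. Dotted lines mark the 2-fold limit and the dashed line the median of all measured entries. CATSPER1, CATSPER3 and CATSPER4 pass the limit at 6 months against 3 weeks, and the other 4 genes lie below 0 there in RPKM as deposited (CATSPER2 and CATSPERG2 lie above 0 after rescaling by the median of ratios).

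In 6 months against 3 weeks the genes went apart. CATSPER1, CATSPER4 and CATSPER3 were at least 2-fold higher at 6 months, with differences of 2.84, 1.96 and 1.58. CATSPER2, CATSPERG2, CATSPERG1 and CATSPERB lay at -0.23, -0.45, -0.74 and -0.84 and did not pass the limit; the first pair turned positive after rescaling by the median of ratios. Thus 3 of 7 genes were higher and 0 lower, where 9.73% of all measured entries were called higher and 14.1% lower. Over protein-coding entries these shares were 9.54% and 7.87%.

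By RPKM, CATSPER1 had 9.06 times its 3-week level at 6 months (7.89 to 10.4), CATSPER3 5.69 times (3.94 to 8.44) and CATSPER4 5.29 times (4.43 to 6.35). The intervals of these 3 ratios do not overlap those of the other 4 genes. CATSPER2 stood at 0.831 of its 3-week level (0.747 to 0.924), CATSPERG2 at 0.704 (0.654 to 0.757), CATSPERG1 at 0.545 (0.505 to 0.588) and CATSPERB at 0.526 (0.484 to 0.571). The median over all measured entries was -0.31, so CATSPER2, at -0.226, lay above that median. It did not lie above the median of protein-coding entries, -0.224. Rescaling libraries by the median of ratios moved the median over all measured entries to 0.12. CATSPER2 and CATSPERG2 then turned to 0.36 and 0.17, while CATSPERB and CATSPERG1 stayed below 0 at -0.21 and -0.16. CATSPER1, CATSPER3 and CATSPER4 passed the limit under all 4 rescalings tried.

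**Figure D3:**
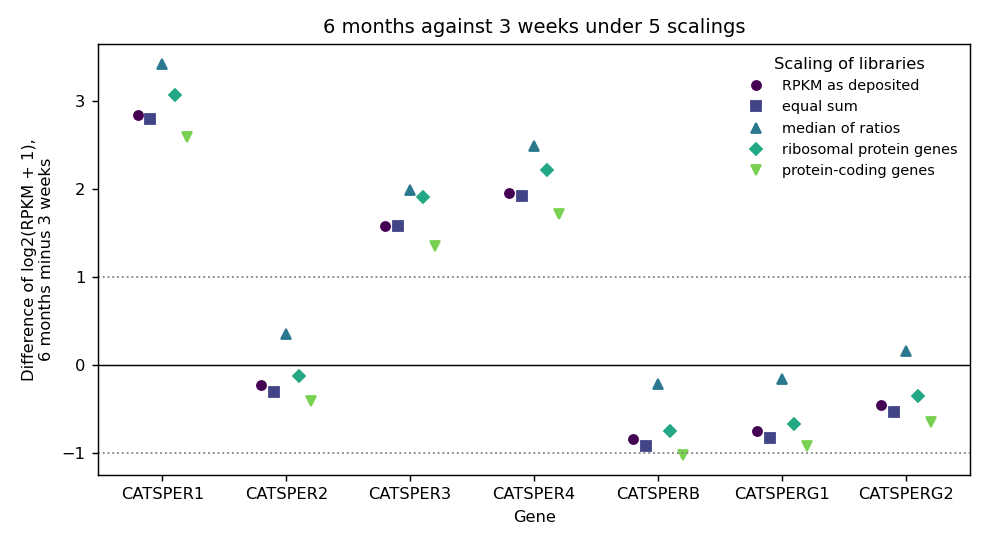
Difference of log2(RPKM + 1), 6 months minus 3 weeks, for the 7 genes with RPKM as deposited and after 4 rescalings of the libraries; dotted lines mark the 2-fold limit. CATSPER1, CATSPER3 and CATSPER4 lie above the upper limit under each scaling. CATSPER2 and CATSPERG2 lie above 0 under the median of ratios only, and CATSPERB is past the lower limit, at -1.02, under scaling over protein-coding genes only.

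Ratios between genes of one library do not depend on how libraries are scaled. CATSPER1 over CATSPER2 was 5.93 at 6 months (5.43 to 6.48) and 0.544 at 3 weeks (0.466 to 0.632), so the order of these pore genes turned over. CATSPER4 over CATSPER3 was 2.59 at 6 months (2.22 to 3.03) and 2.78 at 3 weeks (1.91 to 4.17), and the ratio at 6 months was 0.929 times that at 3 weeks (0.601 to 1.41). CATSPER1 over CATSPER3 was 6.97 at 6 months (6.03 to 8.08) and 4.38 at 3 weeks (3.04 to 6.48), and the ratio at 6 months was 1.59 times that at 3 weeks (exact conditional interval 1.05 to 2.36).

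The summed RPKM of the 7 genes was 67.2 at 6 months and 42.7 at 3 weeks. The pore genes made up 72.9% of it at 6 months (49.03 RPKM) and 27.9% at 3 weeks (11.9 RPKM). The 3 auxiliary genes among the 7, whose sum includes both CATSPERG copies, made up 27.1% at 6 months (18.2 RPKM) and 72.1% at 3 weeks (30.8 RPKM). Other auxiliary subunit genes, described below, are not in the sum. Catsperz had 94.95 RPKM at 3 weeks and 148 at 6 months, Catsperd 16.8 and 20.4, and Catspere2 17.5 and 4.26. These shares therefore hold for the 7 listed genes only, not for pore and auxiliary subunits at large. CATSPER1 alone took 43.3% of the sum at 6 months and 7.53% at 3 weeks. The sum at E14 and E18 rested on 38 and 77 reads, of which CATSPER2 gave 23 and 32.

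**Figure D4:**
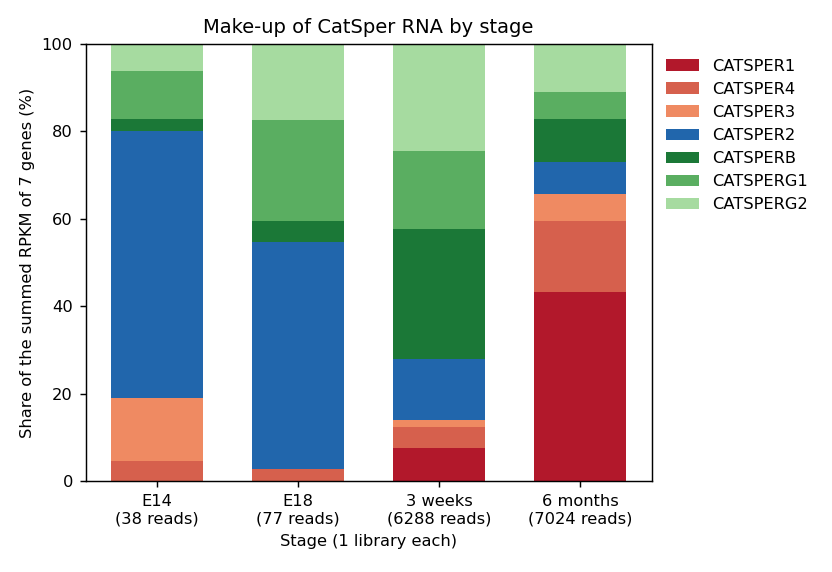
Share of the summed RPKM of the 7 genes, in percent, taken by each gene at each stage, with the reads behind the sum under each bar. The 3 auxiliary genes among the 7 (greens) take most of the sum at 3 weeks. Pore genes (reds and blue) take most of it at 6 months. Other auxiliary subunit genes are not in the sum, and the fetal bars rest on few reads.

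At 6 months the levels ran from 29.1 RPKM for CATSPER1, through 10.8 for CATSPER4, 7.32 for CATSPERG2, 6.68 for CATSPERB, 4.91 for CATSPER2 and 4.181 for CATSPER3, to 4.179 for CATSPERG1. CATSPER3 over CATSPERG1 was 1.00 (0.857 to 1.16), an interval that includes equal levels. CATSPERG2 over CATSPERB was 1.10 (1.004 to 1.19) and CATSPER2 over CATSPER3 1.18 (1.003 to 1.38), both with a lower bound just above equal levels. The other neighbours had intervals that stood apart. The span between the highest and lowest gene was 6.97 times at 6 months and 17.3 times at 3 weeks. CATSPER1 stood above 95.2% of 12661 measured protein-coding entries at 6 months and above 58.9% at 3 weeks. CATSPERB stood above 79.0% at 6 months and 90.4% at 3 weeks.

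The 2 protein-coding entries nearest to each gene by Euclidean distance of log2(RPKM + 1) over the 4 libraries describe its course. For CATSPER1 they were 1700084M14Rik (distance 0.07, with 0, 0, 3.11 and 30.3 RPKM from E14 to 6 months) and Hsfy2 (0.12). CATSPER4 had Cib4 and Tsga13, both at 0.13, and CATSPER3 had Gm14781 (0.08) and Gm732 (0.09). CATSPER2 had 9530077C05Rik and Ankrd45, both at 0.12. CATSPERB had Dnah14 (0.09) and Ankar (0.12), CATSPERG1 had Spo11 (0.09) and Abca16 (0.23), and CATSPERG2 had Slco6d1 (0.14) and Gm5152 (0.19). Between 25 (CATSPERB) and 67 (CATSPER2) entries lay within a distance of 0.5 of a gene. Among the 7 genes themselves the closest pair was CATSPERB and CATSPERG2, at 0.30, and the most distant CATSPER3 and CATSPERB, at 3.04.

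Other subunits and partners of the channel, a list of 9 genes, were matched to 6 entries. All 6 were higher at 3 weeks than at E18, with a median difference of 4.51, where 32% of all measured entries were called higher. A downward call was not possible, because their highest level at E18 was 0.436 RPKM. They passed the filter only through the postnatal libraries. At 6 months against 3 weeks, 1 was higher and 1 lower (median -0.10), where 9.73% and 14.1% of all measured entries were called; after rescaling by the median of ratios 2 were higher and 1 lower, with a median of 0.56. Efcab9, a calcium-binding partner of CatSper zeta, had 0.363, 0.248, 5.69 and 29.1 RPKM from E14 to 6 months, and was the one higher at 6 months (difference 2.17). Its ratio of 6 months to 3 weeks was 5.12 (4.41 to 5.97).

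CatSper zeta itself (Catsperz, listed as 1700019N12Rik) was the highest of the subunit and partner genes at E18 and both postnatal stages, with 0.192, 0.436, 94.95 and 148 RPKM over the same stages (difference 0.63 at 6 months against 3 weeks). An overlapping entry under its other name, Tex40, gave 176 at 6 months and 113 at 3 weeks. The annotated Catsperz gene overlaps Kcnk4, a protein-coding gene on the same strand, and the part of Kcnk4 reads in these values was not tested. Its annotated exon length was 1.35 times the recovered one. Catsperd, the delta subunit, had 0.200, 0.228, 16.8 and 20.4 RPKM, and its older name Tmem146 gave 15.4 at 6 months and 14.2 at 3 weeks. The epsilon subunit gene Catspere2, listed as Gm16432, was the one lower, at 4.26 RPKM at 6 months and 17.5 at 3 weeks (difference -1.82). Its transcripts matched those of the copy Catspere1 at 92.4% of 2927 aligned bases, so its reads may be shared.

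C2cd6, which in the mouse is needed to bring the channel to the flagellum and is listed as Als2cr11, had 29.5 RPKM at 6 months and 41.1 at 3 weeks. Slco6c1, a transporter found with the channel complex, had 19.8 RPKM at 6 months and 31.7 at 3 weeks. Neither passed the limit in that comparison, with differences of -0.47 and -0.65.

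**Figure D5:**
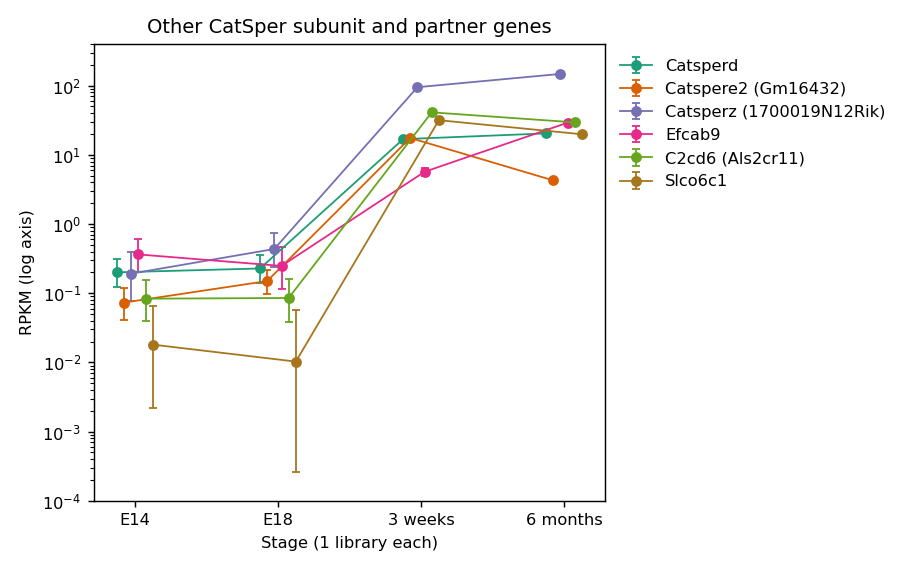
RPKM (log axis) of the 6 matched subunit and partner genes at the 4 stages, with exact Poisson 95% intervals for counting error. Efcab9 climbs to 29.1 RPKM at 6 months, Catspere2 is at 4.26 there against 17.5 at 3 weeks, and Catsperz is highest at both postnatal stages.

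Of 15 measured genes of sperm ion transport and motility signalling, 9 were higher at 3 weeks than at E18 (0 lower, median 2.19), where 32% of all measured entries were called higher and 10.5% lower. A downward call was possible only for Atp2b4, Hvcn1, Ppp3cc and Prkaca, the genes above 1 RPKM at E18. The rest passed the filter only through the postnatal libraries. At 6 months against 3 weeks 6 were higher and 0 lower, where those shares were 9.73% and 14.1%. The median there was 0.16, and it ran from -0.06 (protein-coding genes) to 0.84 (median of ratios) under the rescalings. Akap4, the scaffold of the fibrous sheath that binds protein kinase A, had 323 RPKM at 6 months and 6.29 at 3 weeks. Atp1a4, the sperm sodium pump, had 38.1 RPKM at 6 months and 0.718 at 3 weeks. Slc9c1, the sperm sodium-proton exchanger, had 11.1 RPKM at 6 months and 18.1 at 3 weeks, and Atp2b4, a calcium pump of the plasma membrane, had 2.14 at 6 months and 3.35 at 3 weeks; neither passed the limit.

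Of 12 listed pore genes of other voltage-gated calcium channels and the related TPC channels of endosomes and lysosomes, 5 were measured. None of the 5 passed the limit at 6 months against 3 weeks (2 of 6 measured did, upward, after rescaling by the median of ratios). Over all measured entries 9.73% were called higher there and 14.1% lower. At 3 weeks against E18, 1 of the 5 was lower and 0 higher, where 10.5% and 32% of all measured entries were called. After rescaling to equal sums 1 of 6 measured was higher and 1 lower, and over protein-coding genes 2 of 7 were lower. The gene lower in RPKM as deposited, Cacna1g, of a T-type channel, had 0.171 RPKM at 3 weeks and 2.73 at E18. Cacna1h, another T-type gene, had 5.72 RPKM at 6 months and 3.45 at 3 weeks, and Cacna1a, of a P/Q-type channel, 1.44 at 6 months and 0.464 at 3 weeks. Cacna1c, of the L-type channel of heart and smooth muscle, had 0.261 RPKM at 6 months and 0.742 at 3 weeks, and Tpcn1 had 0.703 at 6 months and 0.917 at 3 weeks. The summed level of all 12 ran from 8.14 RPKM at 3 weeks to 11.8 at E14, while that of the 4 CatSper pore genes ran from 0.210 at E14 to 49.03 at 6 months.

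Beside the split between 3 weeks and 6 months, all 8 elongating spermatid markers were higher at 6 months (median difference 7.38), as were 4 of 6 round spermatid markers (median 2.50) and 4 of 5 Leydig cell markers (median 2.22). Over all measured entries 9.73% were called higher and 14.1% lower. All 3 epididymis markers were lower (median -3.72). So were 1 of 6 Sertoli cell markers (median -0.73), 1 of 3 germ cell markers (median -0.95) and 1 of 3 measured spermatogonial markers (median -0.29). Acrv1, an acrosomal protein gene of round spermatids, had 19.1 RPKM at 6 months and 2.50 at 3 weeks. Of 6 spermatocyte markers, 1 was higher (Pgk2) and 2 lower (Sycp3 and Meiob), with a median of -0.46; after rescaling by the median of ratios 2 were higher and 2 lower, with a median of 0.22. Meiob, a meiotic recombination factor, had 3.97 RPKM at 6 months and 20.1 at 3 weeks. The part of these marker shifts in the CatSper differences was not tested.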

How the data were processed

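The authors' deposited tables give 1 RPKM value per entry and library, with a Gene and an RPKM column per the file headers. Per the submitters' processing notes, TopHat2 and mm10 were used. The sources used here do not state the counter, the annotation, the strand setting or the handling of multiply mapped reads. Per the labels' protocols, ribosomal RNA was depleted, polyadenylated RNA selected and a directional kit used.

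Whole reads were recovered from the steps between RPKM values, with library totals from single-exon genes of GENCODE vM21. Whole reads and 1 length were found for 100% of the 59564 entries that were above 0 in every library (relative tolerance 1e-09). Each read number is the smallest possible one, so true numbers may be a multiple of it and the printed interval too wide. The recovered length equalled the annotated one for 66.9% of 4005 single-exon genes. The annotated exon length was 1.49 times the recovered one for CATSPERB, 1.46 for CATSPERG2 and 1.06 for CATSPER1. For CATSPER3 and CATSPER4 they differed by 2 bases, and for CATSPER2 and CATSPERG1 they were equal. Orders and ratios between genes by RPKM depend on the lengths used, most of all for CATSPERB and CATSPERG2.

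Differences are of log2(RPKM + 1), pseudocount 1, over entries of at least 1 RPKM in 1 library, called at 1 or more (2-fold). The pseudocount understates changes of low genes. All 7 genes passed the filter through the postnatal libraries. With 1 library per stage no p-value was computed. Exact Poisson, Clopper-Pearson and, for a ratio of ratios, exact conditional odds-ratio intervals (95%) cover counting error only. A level of 0 reads allows up to 3. The members and lists were chosen with earlier results of these data known. Subunit genes were all named. From each other list the 2 largest differences each way at 6 months against 3 weeks were named; Cacna1g and the markers were named after their values were seen. Older symbols were matched through RefSeq. Python 3.11.15, scipy 1.17.1 and Biopython 1.88 were used, and the calls and the recovery were tested on simulated data.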

Additional observations from a re-analysis of the deposited data

How the results depend on the processing

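Counts of the 7 genes called higher or lower kept within 1.5 times under a pseudocount of 0.1, no filter, a minimum of 5 RPKM, and 3 rescalings (equal sums, median of ratios, ribosomal protein genes). With a 4-fold limit 1 of the 7, CATSPER1, was higher at 6 months against 3 weeks. After rescaling over protein-coding genes 1, CATSPERB, was lower there. At a minimum of 5 RPKM CATSPER3 was not measured. No called difference of the 7 genes changed sign under these settings. Over all entries the 6-month comparison gave 4182 higher and 6062 lower (40.8% higher). The median of ratios gave 7593 and 1886 (80.1%), protein-coding scaling 3191 and 7607 (29.6%), a 4-fold limit 1376 and 775 (64.0%), a pseudocount of 0.1 6161 and 13337, and a minimum of 5 RPKM 2367 and 4259. For 3 weeks against E18 the counts were 13742 and 4532 (75.2%), against 24515 and 1323 (94.9%) over ribosomal protein genes and 11527 and 6596 (63.6%) over protein-coding genes, 6922 and 852 with a 4-fold limit, 9387 and 2652 at 5 RPKM, and 19642 and 7687 with a pseudocount of 0.1. For E18 against E14 they were 934 and 574 (61.9%), 726 and 789 (47.9%) by the median of ratios, 543 and 491 over ribosomal protein genes, 511 and 283 at 5 RPKM, 118 and 90 with a 4-fold limit, and 3204 and 1768 with a pseudocount of 0.1. In the gene and marker lists no gene called with RPKM as deposited turned its sign under the 4 rescalings. The cause was not tested. No paired analysis was possible because each stage had 1 library. Depth limits the fetal levels that rest on 0 to 3 reads: CATSPER1, CATSPER3, CATSPER4 and CATSPERB in both fetal libraries, and CATSPERG2 at E14.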

Other observations

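A processed pseudogene entry inside CATSPER2, Gm14001 on the same strand, shares 0 exon bases with it. It had 1.36 RPKM at 6 months (12 reads, exact Poisson 95% interval 0.701 to 2.37) and 7.04 at 3 weeks (59 reads, 5.36 to 9.08), while CATSPER2 itself had 4.91 RPKM at 6 months and 5.91 at 3 weeks. Gm14001 rests on a model of 247 bases.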
